A study of Mus musculus with 12 samples.

Results

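The genes described here are 10 antigen receptor kinases and adaptors, chosen by name: the Src-family kinases Fyn, Lck and Src, the kinases Zap70 and Btk, the adaptors Blnk and Lcp2, and the receptor signalling chains Cd79a, Cd79b and Cd247. All 10 were among the 545 immune genes counted in the deposited table. Microglia, macrophages that live in brain tissue, were sorted from the hippocampus of control male mice of strain Balbc on postnatal day 14 (P14, n = 6) or postnatal day 28 (P28, n = 6), after a Percoll gradient. Every animal came from a different litter, the labels name no transgene or agent, and both ages were raised under control conditions. RNA was amplified and counted on the nCounter mouse immune panel, in which each probe carries a fluorescent barcode and barcodes are counted without sequencing. The comparison asks which of these genes differ in microglia between the ages.

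Antigen receptors of T and B cells have no enzyme of their own. Src-family kinases phosphorylate tyrosine motifs, called ITAMs, in their signalling chains (Cd247 in T cells, Cd79a and Cd79b in B cells), a kinase of the Syk and Zap70 family docks there, and the adaptors Lcp2 and Blnk then assemble the complex in which Btk and its relatives act. Microglia have no antigen receptor, but use the same kind of relay behind ITAM chains such as Tyrobp and Fcer1g.

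Upstream sequences are shown for the Src-family kinases, to set the 2 that fell beside Src, and for Cd79a; none is shown for Cd79b. They are RefSeq sequences of GRCm38.p6, the C57BL/6J reference and not the Balbc strain, and each holds the 150 bases before an annotated start. All 10 members were matched to RefSeq by accession, and 9 of them had 12 starts in the promoter table. Fyn lies at chr10:39369649-39369798 on the plus strand, Lck at chr4:129573642-129573791 (its distal start) and chr4:129558373-129558522 (its proximal start) on the minus strand, Src at chr2:157424143-157424292 on the plus strand and Cd79a at chr7:24897347-24897496 on the plus strand. Capitals mark matches, on either strand, to the PU.1-type core GAGGAA, the Runx-type core TGTGGT, the TATA box TATAAA and the GC box GGGCGG; no matches overlap in these windows.
Fyn: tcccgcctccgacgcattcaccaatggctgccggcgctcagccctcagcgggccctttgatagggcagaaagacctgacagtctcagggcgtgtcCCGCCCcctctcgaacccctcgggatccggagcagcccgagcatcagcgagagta
Lck distal: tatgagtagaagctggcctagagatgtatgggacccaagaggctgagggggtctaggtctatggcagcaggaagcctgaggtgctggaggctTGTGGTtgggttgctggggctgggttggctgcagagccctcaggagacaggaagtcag
Lck proximal: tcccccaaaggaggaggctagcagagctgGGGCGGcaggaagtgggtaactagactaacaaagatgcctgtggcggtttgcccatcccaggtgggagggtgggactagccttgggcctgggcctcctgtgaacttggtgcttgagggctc
Src: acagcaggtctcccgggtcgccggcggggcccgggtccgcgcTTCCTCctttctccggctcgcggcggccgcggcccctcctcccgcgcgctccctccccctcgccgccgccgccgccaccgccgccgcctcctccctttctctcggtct
Cd79a: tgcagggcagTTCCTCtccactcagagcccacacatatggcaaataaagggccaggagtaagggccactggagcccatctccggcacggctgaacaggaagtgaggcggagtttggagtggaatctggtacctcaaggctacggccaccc
Of the 12 windows of members, 3 held GAGGAA, 2 held TGTGGT, 2 held GGGCGG and 0 held TATAAA. Among all 32851 windows of this length, 14.5% held GAGGAA, 8.4% TGTGGT, 28.6% GGGCGG and 7.57% TATAAA. No core was held by every window of Fyn and Lck, the kinases that fell. Fyn and the proximal start of Lck held the GC box, and the distal start of Lck held the Runx-type core. A match describes letters only.

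The total raw count over the 545 genes lay between 356398 and 1316430 per animal at P14 and between 1025196 and 1534665 at P28. Levels below are raw counts scaled to 6 reference genes (scaled counts), and probes differ in efficiency, so levels of different genes are not compared. A gene counted as above background in a sample when it lay over a lane threshold of 12.9 to 33.4 raw counts, which is 2 SD above the average negative probe, and 366 genes were above background in at least 40% of samples and were tested. Of these, 30.6% passed an FDR of 0.05 in edgeR's quasi-likelihood test, 16.7% higher and 13.9% lower at P28. That split, 61 higher and 51 lower, was 70 and 63 with TMM factors, 89 and 42 with all 14 reference genes, 50 and 74 without Polr1b, 51 and 96 with total counts, 93 and 36 with the authors' factors and 8 and 128 with positive controls alone. The brightest positive control had 9367 to 13062 counts at P14 and 24562 to 27713 at P28, so its level and age cannot be told apart. With positive controls alone, the median log2 fold change of all tested genes was -0.74, against 0.0026 with 6 reference genes. P14 samples 4 and 5 had the lowest total counts, and results are also given without them where they change. In bulk RNA, fewer cells that express a gene and less RNA per cell cannot be told apart.

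Of 9 listed markers of microglia, 7 were in the table, among them Csf1r, Cx3cr1 and Itgam, and all 7 were tested genes. Their scaled counts summed to 188709 to 222447 at P14 and 202335 to 238592 at P28. Whether they tell microglia from other macrophages was not tested. T cell markers summed to 564 to 886 at P14 and 742 to 877 at P28 over 20 genes, and Cd2, Cd3e, Cd28, Gata3 and Il2ra were above background in 0 of 12 samples. B cell markers summed to 1647 to 2586 and 1723 to 2028 over 9 genes, and Pax5 and Cr2 were above background in 0 of 12 samples. Pou2f2 alone made up most of these B cell sums, with a mean scaled count of 1813 (P14) and 1687 (P28). The sums therefore mainly follow Pou2f2, while Ms4a1, another of these markers, averaged 22.1 (P14) and 23.5 (P28). NK cell markers summed to 141 to 277 at P14 and 283 to 389 at P28 over 9 genes. Of the 6 NK cell markers tested, 1 rose, 2 fell and 3 did not pass, where 16.7% of all tested genes were called higher and 13.9% lower. Klrd1 rose from a mean scaled count of 15.9 to 107. Klrk1 (38.1 to 15.5) and Gzma (28.0 to 16.0) fell, with 0 P28 samples above background for either.

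Of the 10 members, 8 were tested and 2, Zap70 and Cd247, were not above background often enough. Fyn, Lck and Cd79b were lower at P28, Cd79a was higher, and Src, Btk, Blnk and Lcp2 did not pass. Thus 3 of 8 tested members fell, against 13.9% of all tested genes, and 1 of 8 rose, against 16.7%. The median log2 fold change was 0.023 over the 8 members and 0.0026 over all tested genes. Of the 8 tested members, 4 had scaled counts with no overlap between the ages, against 20.8% of all tested genes. Lower values at P28 with no overlap were found in 3 of 8 members, against 7.92% of all tested genes. These were the members that had passed, so the lack of overlap adds no separate support. Over all tested genes, 76 had no overlap and 112 passed.

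**Figure D1:**
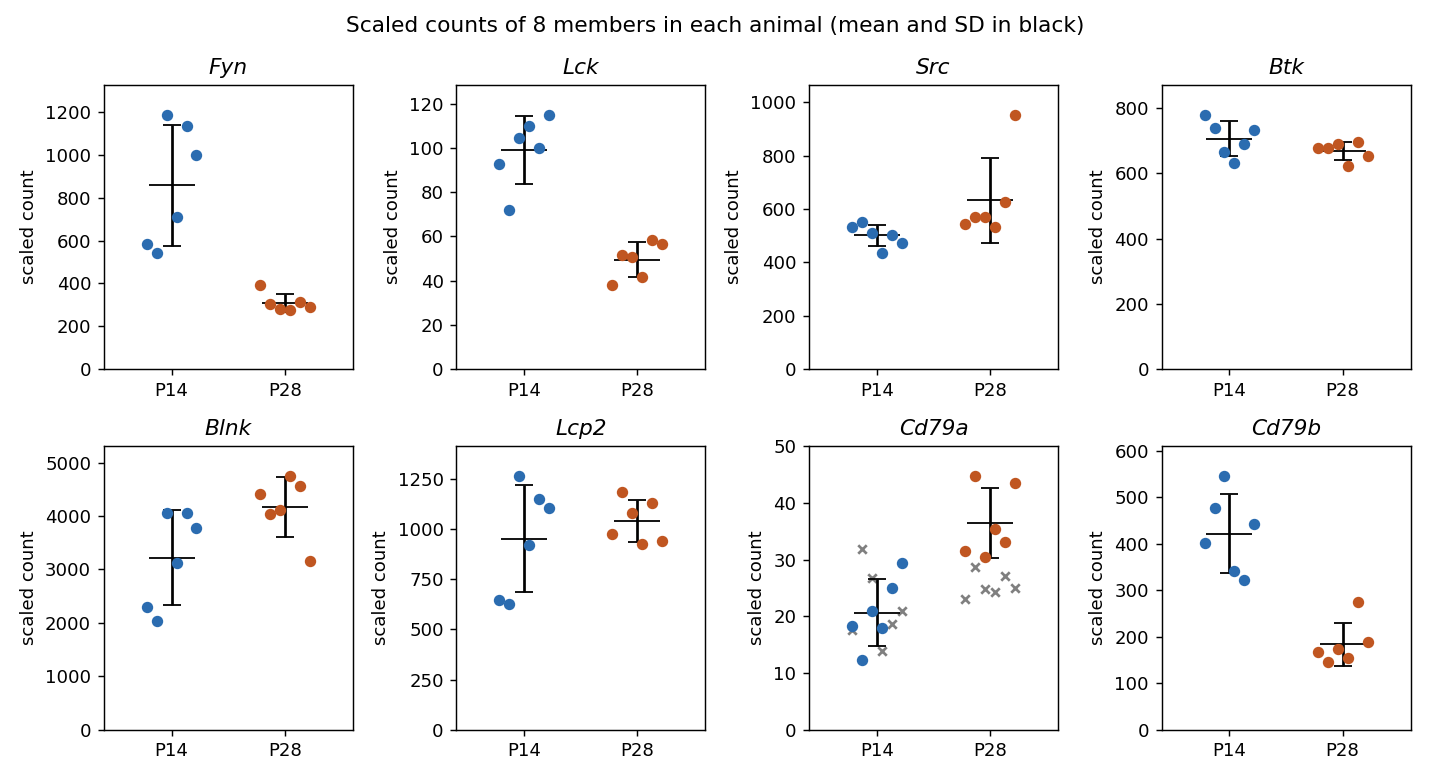
Scaled counts of the 8 tested members (y axis, from 0) in each of 6 animals at P14 (blue) and 6 at P28 (orange), with the mean and SD in black. Grey crosses in the Cd79a panel are the background threshold of each lane on the same scale; Fyn, Lck and Cd79b sit lower at P28 in every animal, and Cd79a sits higher.

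Fyn, a Src-family kinase active in T cells as well as in neurons and oligodendrocytes, fell more than any other member. Its scaled counts ran from 542 to 1185 at P14 with a median of 855, and from 277 to 391 at P28 with a median of 297. At P14 the animals spread widely: samples 4 and 5 had 584 and 542, sample 25 had 711, and samples 16, 61 and 81 had 999 to 1185. Even the lowest P14 animal lay above the highest P28 animal. The mean went from 859 ± 283 to 309 ± 42.2 (SD, n = 6), a log2 fold change of -1.48 ± 0.20 (SE; edgeR, adjusted p = 6.62e-05), or 2.78-fold lower. Fyn ranked 5 among the falls of all 366 tested genes. Without P14 samples 4 and 5, the log2 fold change was -1.70 (adjusted p = 1.59e-06). The coefficient of variation of Fyn was 32.9% at P14 and 13.6% at P28.

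Lck, the kinase that starts T cell receptor signalling, was a dim gene here, with raw counts of 29 to 133, but was above background in all 12 samples. Its scaled counts were 71.7 to 115 at P14 (median 102) and 38.1 to 58.3 at P28 (median 51.0), and the ages did not overlap. P14 sample 5, which had the lowest total count, was also the lowest P14 sample for Lck. The mean fell from 98.9 ± 15.4 to 49.5 ± 8.05 (SD, n = 6), a log2 fold change of -1.01 ± 0.15 (edgeR, adjusted p = 0.000128). Of the 10 T cell markers tested, which do not include Lck, 2 rose, 1 fell and 7 did not pass. Among all tested genes 16.7% were called higher and 13.9% lower.

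Src, the founding member of the family, showed no such drop. Its scaled counts ran from 436 to 549 at P14 (median 507) and from 533 to 951 at P28 (median 569). The ages overlapped, and 951 was the value of P28 sample 138 alone, since the other P28 samples had 533 to 624. The log2 fold change of Src was 0.34 ± 0.15 (95% interval 0.026 to 0.65; edgeR, adjusted p = 0.0936) and did not pass. With the authors' factors, estimated here from their scaled values, Src passed (0.46; edgeR, adjusted p = 0.0308). With positive controls alone its sign turned (-0.38). Without P14 samples 4 and 5 and P28 sample 138, Src passed at 0.24 (edgeR, adjusted p = 0.0407), an omission chosen after seeing the data. Leaving out 1 animal at a time moved Src to between 0.18, without P28 sample 138, and 0.38, and it passed in 0 of the 12 cases (edgeR, adjusted p from 0.0783 to 0.176).

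The kinases were also compared within each animal, as the log2 ratio of the raw counts of a pair, which needs no scaling between samples. Fyn over Src went from 0.71 ± 0.54 at P14 to -1.01 ± 0.40 at P28 (SD, n = 6), a drop of 1.72 on the log2 scale, or 3.30-fold. The ages did not overlap, since the P14 ratios ran from -0.020 to 1.22 and the P28 ratios from -1.73 to -0.48. Over the 924 arrangements of the samples, the exact two-sided permutation p was 0.00216, the smallest that this design allows, and 0.00433 after Benjamini-Hochberg adjustment over 6 ratios. Lck over Src dropped by 1.31 (from -2.35 ± 0.35 to -3.66 ± 0.25), also with no overlap and with the same exact permutation p of 0.00216 (adjusted 0.00433). Fyn over Lck went from 3.07 ± 0.38 to 2.65 ± 0.37, with overlap and an exact permutation p of 0.0866 (adjusted 0.0866), so a difference between the falls of Fyn and Lck was not shown. That ratio differed by -0.41 in all and by -0.56 (adjusted p = 0.0195, exact permutation test) without P28 sample 118, which had the highest Fyn and the lowest Lck at P28. The ratios of the Src family share genes and are not independent of each other or of the fold changes above.

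Markers of neurons, oligodendrocytes and vessels, some of which also express Fyn, summed to higher levels at P28. Over 7 such genes in the table, scaled counts summed to 8006 to 11320 at P14 and 12831 to 24762 at P28. Among them 4 rose and 2 fell, where 16.7% of all tested genes were called higher and 13.9% lower. Most of the summed difference came from Cd34, a vessel and progenitor marker whose mean scaled count went from 1198 to 6972, and from App, the amyloid precursor, from 5335 to 7388. The neuronal chemokine Cx3cl1 fell from 27.0 to 8.18, with 0 P28 samples above background, and the endothelial cadherin Cdh5 fell from 329 to 213. Their part in the level of Fyn was not tested.

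The kinases downstream of the receptor differed from each other in detection. Zap70, which docks on phosphorylated Cd247 in T cells, had raw counts of 10 to 18 at P14 and 7 to 24 at P28. Only P14 sample 25 exceeded background, with 18 counts against a threshold of 15.5, and 0 of the 6 P28 samples did. Zap70 was therefore not detectable at this depth in 11 of 12 animals, and no fold is given. Btk, a Tec-family kinase of B cells and myeloid cells, was above background in all 12 samples and was the steadiest member. Its scaled counts ran from 631 to 778 at P14 (median 712) and from 623 to 698 at P28 (median 678), with coefficients of variation of 7.61% and 4.13%. The log2 fold change of Btk was -0.076 ± 0.089 (95% interval -0.27 to 0.12; edgeR, adjusted p = 0.577), and its sign turned with the authors' factors (0.045). The interval bounds a change of Btk on the scale of 6 reference genes only, since it was -0.77 (adjusted p = 0.0624) with positive controls alone.

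The adaptors Blnk (SLP-65, of B cells and macrophages) and Lcp2 (SLP-76, of T cells and myeloid cells) were well above background in every animal. Scaled counts of Blnk ran from 2040.4 to 4062 at P14 (median 3445) and from 3163 to 4748 at P28 (median 4266). Those of Lcp2 ran from 628 to 1266 at P14 (median 1015) and from 929 to 1184 at P28 (median 1029). For both adaptors the ages overlapped, and P14 samples 4 and 5 were the lowest of all 12 animals, at 2294 and 2040.4 for Blnk and at 649 and 628 for Lcp2. Blnk had a log2 fold change of 0.37 ± 0.18 (95% interval -0.0054 to 0.75; edgeR, adjusted p = 0.121) and did not pass. Blnk passed with all 14 reference genes (0.46, adjusted p = 0.0199), with TMM factors (0.36, adjusted p = 0.0484), with the authors' factors (0.50, adjusted p = 0.0241) and in DESeq2 with its median-ratio factors (0.35, adjusted p = 0.0412). It was 0.15 (adjusted p = 0.317) without P14 samples 4 and 5 and -0.43 with positive controls alone. Lcp2 had a log2 fold change of 0.12 ± 0.17 (95% interval -0.25 to 0.49; edgeR, adjusted p = 0.63) and -0.095 without P14 samples 4 and 5.

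Within an animal, the adaptors kept a nearly fixed ratio at P14. The log2 ratio of Lcp2 over Blnk was -1.76 ± 0.058 at P14 and -1.998 ± 0.24 at P28 (SD, n = 6), a difference of -0.24 with an exact permutation p of 0.0303 (adjusted 0.0455). The ages overlapped, and leaving out any 1 of 10 of the 12 animals ended the call. In 9 of these omissions the difference was between -0.21 and -0.25, and without P28 sample 119 it was -0.17 (adjusted p = 0.0909, exact permutation test). The log2 ratio of Btk over Blnk went from -2.14 ± 0.50 to -2.63 ± 0.22, an exact permutation p of 0.0455 that did not hold after adjustment (0.0545). Btk over Blnk passed without P14 sample 16 (-0.58, adjusted p = 0.0455) and without P28 sample 138 (-0.56, adjusted p = 0.0208), by the same exact permutation test.

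The chains Cd79a and Cd79b, which form a heterodimer beside the immunoglobulin of the B cell receptor, moved in opposite directions. Scaled counts of Cd79b were 322 to 546 at P14 (median 422) and 147 to 274 at P28 (median 169.6), with P28 sample 137 at 274 and the others at 147 to 188. Cd79b was above background in all 12 samples and fell from 422 ± 84.4 to 184 ± 46.8 (SD, n = 6), a log2 fold change of -1.20 ± 0.18 (edgeR, adjusted p = 0.000138). Scaled counts of Cd79a were far closer to background, at 12.4 to 29.3 at P14 (median 19.6) and 30.5 to 44.8 at P28 (median 34.3). Background was exceeded by Cd79a in 4 P14 samples of 6 and in 6 P28 samples of 6, where its raw counts were 32 to 45. With the threshold at 3 SD, Cd79a exceeded background in 3 P14 samples and 4 P28 samples. Its log2 fold change was 0.76 ± 0.18 (edgeR, adjusted p = 0.00483), 1.49 (limma, adjusted p = 0.0144) after subtraction of the negative probes and -0.0095 with positive controls alone.

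Within each animal the balance of the chains shifted with no overlap between the ages. The log2 ratio of Cd79a over Cd79b was -4.38 ± 0.57 at P14 and -2.31 ± 0.45 at P28 (SD, n = 6), a difference of 2.07, or 4.19-fold. It ran from -5.27 to -3.68 at P14 and from -3.05 to -1.71 at P28. The exact two-sided permutation p was 0.00216 (adjusted 0.00433 over 6 ratios). Each chain alone had shown no overlap, in opposite directions, so this p was fixed in advance and adds no separate support. The difference was 2.76 after subtraction of the negative probes and 1.82 without P14 samples 4 and 5. Its size is uncertain, since the counts of Cd79a lay close to background at both ages. Of the 5 B cell markers tested, which do not include these chains, 0 rose, 0 fell and 5 did not pass. Among all tested genes 16.7% were called higher and 13.9% lower. Ms4a1, 1 of the 5, exceeded background in only 3 P14 samples and 4 P28 samples. By edgeR at an unadjusted p under 0.05 the count of B cell markers was also 0, as it was by DESeq2 and limma at an FDR of 0.05. It was 1 higher without P14 samples 4 and 5 and 2 lower with positive controls alone. A part of B cells in the levels of these chains was not tested.

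Cd247, the zeta chain of the T cell receptor and of NK cell receptors, had raw counts of 9 to 26 at P14 and 11 to 17 at P28. Background was exceeded in P14 sample 4 alone, with 16 counts against a threshold of 13.5, and in 0 of the 6 P28 samples. Without the presence rule, edgeR called Cd247 lower at P28 (adjusted p = 0.0442), as it did 10.3% of all 545 genes and 4.47% of the 179 genes that the rule left out. Its counts lay under background in 11 of 12 samples, so no fold is given.

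**Figure D2:**
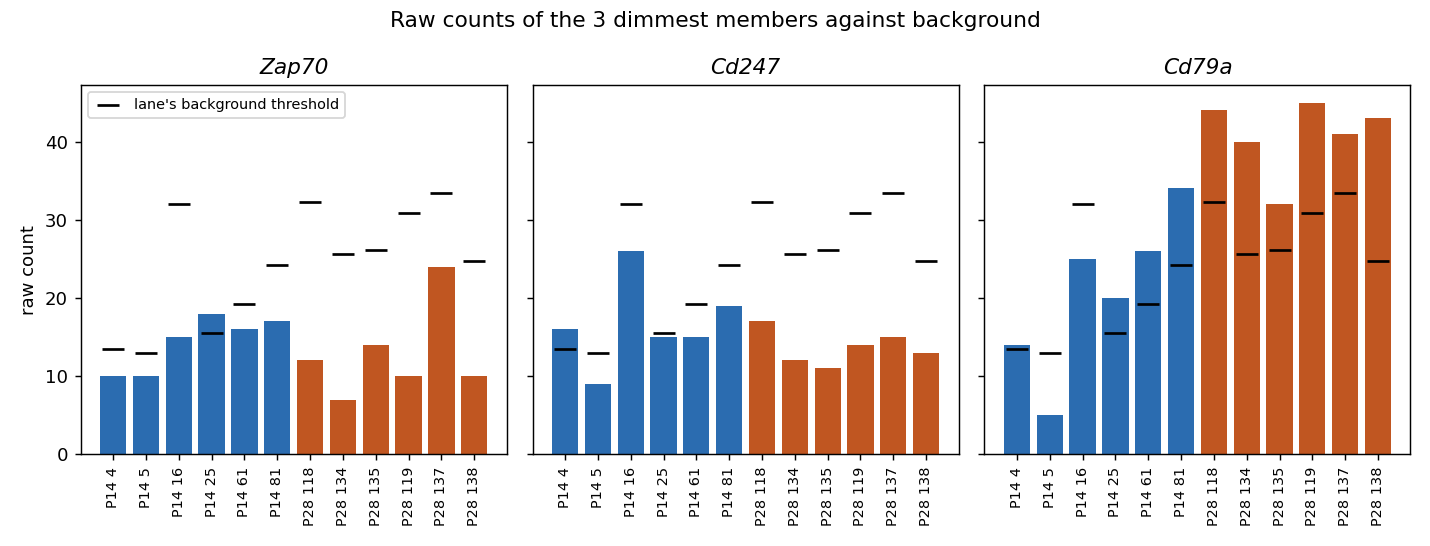
Raw counts (y axis) of Zap70, Cd247 and Cd79a in each animal (blue P14, orange P28), with the background threshold of each lane as a black line. Zap70 and Cd247 exceed it in 1 of 12 animals each, and Cd79a in 4 of 6 at P14 and 6 of 6 at P28.

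The 3 falls kept their direction on each scale tried. With positive controls alone, where the whole panel moved down, Fyn was at -2.30, Cd79b at -1.90 and Lck at -1.79, each passing; with the authors' factors they were at -1.34, -1.08 and -0.89. Fyn, Lck and Cd79b passed as lower in all 29 alternatives, of which the FDR of 0.1 could not lose a call. In the authors' deposited table, which lists 336 genes and 8 of the members, the fold of P28 over P14 was 0.39 for Fyn, 0.47 for Cd79b, 0.55 for Lck and 1.94 for Cd79a. The authors' deposited table gives unadjusted p-values of 0.0065 for Blnk (fold 1.42) and 0.0381 for Src (fold 1.38), and of 0.1232 for Lcp2 and 0.5375 for Btk.

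**Figure D3:**
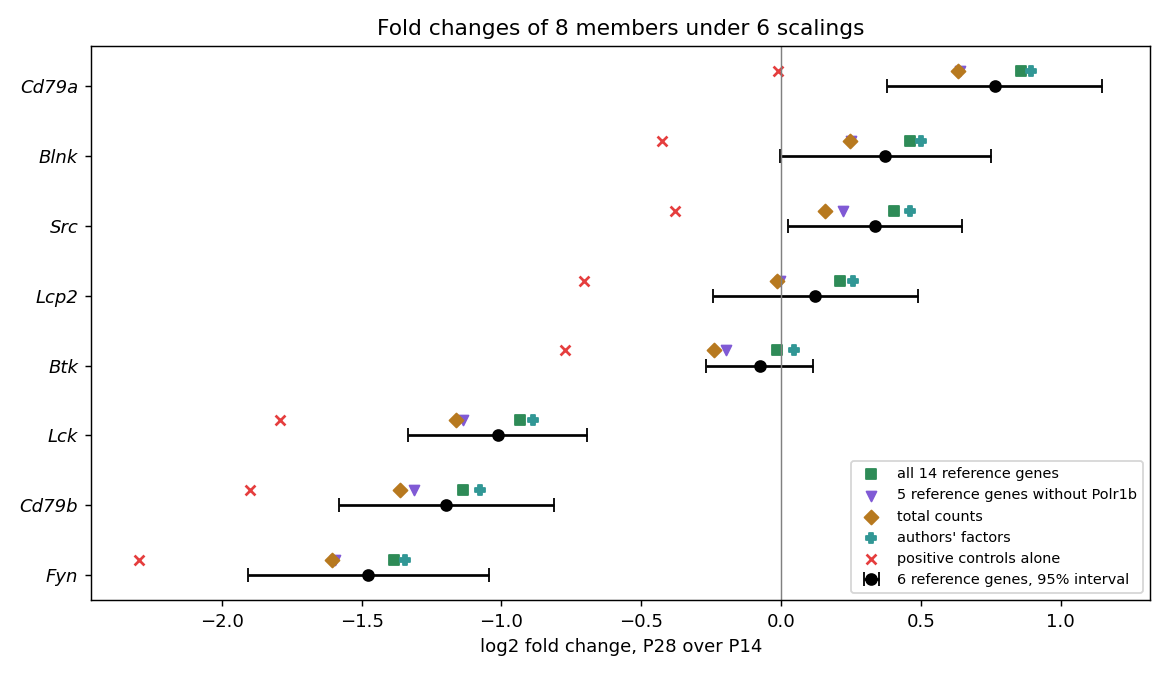
Log2 fold change of P28 over P14 (x axis) for the 8 tested members, with the main value and its 95% interval in black and 5 other scalings as coloured symbols. Fyn, Cd79b and Lck lie below 0 on each of the 6 scales drawn, and Cd79a lies above 0 on all but positive controls alone, where it is at -0.0095.

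**Figure D4:**
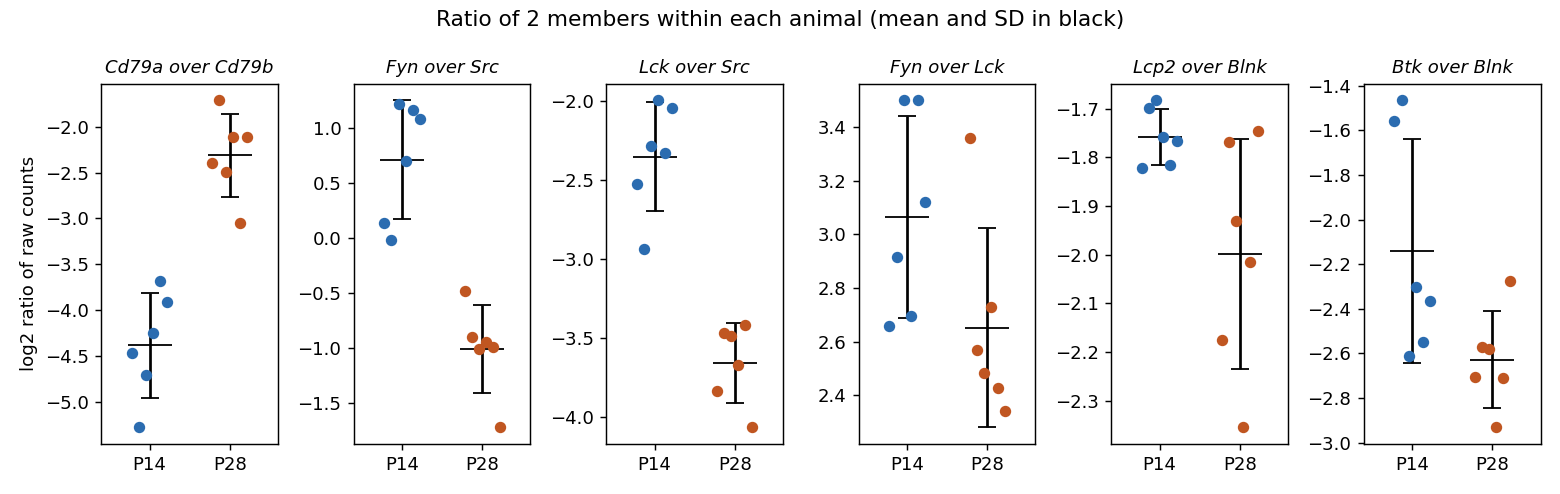
Log2 ratio of the raw counts of 2 members within each animal (y axis, a separate range per panel) at P14 and P28, with mean and SD in black. Cd79a over Cd79b, Fyn over Src and Lck over Src show no overlap between the ages, and the other 3 ratios overlap.

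Genes around the members in the pathway were examined from lists, beside 16.7% of all tested genes called higher and 13.9% lower. Of 7 tested genes among other proximal kinases, phosphatases and adaptors, 1 rose, 0 fell and 6 did not pass. The one that rose was Ptpn6, the phosphatase SHP-1 that dampens these kinases, whose scaled counts averaged 5703 ± 318 at P14 and 7803 ± 949 at P28. Its log2 fold change was 0.45 ± 0.10 (edgeR, adjusted p = 0.00275), and -0.26 with positive controls alone. The phosphatases Ptpn2 (0.36), Ptprc (0.36) and Ptpn22 (-0.26) did not pass. Ptpn2 and Ptprc passed as higher in edgeR with TMM factors (adjusted p = 0.0359 and 0.0480), all 14 reference genes (0.0153 and 0.0207) or the authors' factors (0.0180 and 0.0259). Both also passed in limma on the authors' values (adjusted p = 0.0113 and 0.0267) and in DESeq2 with its median-ratio factors (0.0405 and 0.0376). With 6 reference genes in DESeq2, neither passed (adjusted p = 0.0561 and 0.0981). Each stood at -0.44 with positive controls alone. Ptpn2 also passed as higher without P14 sample 16 (log2 fold change of Ptpn2 0.44; edgeR, adjusted p = 0.0430). Syk, the relative of Zap70 that docks on ITAMs in B cells and microglia, is named here for its role: its scaled counts averaged 7416 ± 937 at P14 and 7265 ± 638 at P28, a log2 fold change of -0.030 ± 0.11 (edgeR, adjusted p = 0.859).

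Of 8 tested ITAM chains and their receptors, 2 rose, 2 fell and 4 did not pass. Fcer1g, the ITAM chain of Fc receptors, fell (log2 fold change -1.07 ± 0.10), Trem2, which signals through Tyrobp, rose (0.71 ± 0.13, and -0.065 with positive controls alone), and Klrd1, an NK receptor chain, rose (2.72 ± 0.21). Klrd1 exceeded background in 2 P14 samples and 6 P28 samples, so its fold stands against a group near background, and it was 4.59 in limma after the negative probes were subtracted. Klrk1, the receptor NKG2D, passed as lower and exceeded background in 5 P14 samples and 0 P28 samples. Of 19 tested downstream carriers to NF-kB, NFAT and MAP kinases, 1 rose, 3 fell and 15 did not pass, against 0 and 8 without P14 samples 4 and 5. Relb (-0.78 ± 0.18) and Nfkb1 (-0.68 ± 0.18), subunits of NF-kB, fell, as did Card9, the adaptor between Syk and NF-kB in myeloid cells (-0.41 ± 0.11), which did not pass with the authors' factors (-0.29, adjusted p = 0.0732 in edgeR). Rela, another NF-kB subunit, rose (0.47 ± 0.15) and was at -0.32 with positive controls alone. In edgeR, Rela did not pass without P14 samples 4 and 5 (0.36, adjusted p = 0.0623) or without Polr1b as a reference gene (0.355, adjusted p = 0.0888). Rela passed in edgeR without P14 samples 4 and 5 and P28 sample 138 (0.22, adjusted p = 0.0378). Of 10 tested inhibitory and co-signalling receptors, 3 rose, 1 fell and 6 did not pass: Pdcd1 (1.37 ± 0.21), Cd5 (1.07 ± 0.20) and Cd96 rose, and Icos fell (-0.42 ± 0.11). Cd96 exceeded background in 0 P14 samples and Cd5 in 3, and the log2 fold change of Cd5 was 2.09 in limma after the negative probes were subtracted. With positive controls alone, the calls of Pdcd1, Cd5 and Cd96 were lost. The median log2 fold changes of these lists, -0.015, -0.057, -0.034 and -0.028 in the order given, lay near that of all tested genes, 0.0026.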

How the data were processed

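Each animal gave 2 ng of RNA for cDNA, which went through 5 PCR rounds before hybridisation to the panel, per the labels' protocols; PCR copies are not independent molecules. The authors deposited raw counts per probe (573 probes: 545 genes, 14 reference genes, 8 negative and 6 positive controls). The authors also deposited scaled values, used as a score, with a fold (a ratio of group means) and, for every gene, a p-value whose column is headed t-test. The sources used here do not give the counting software. Columns without a matching sample numbered 0. Scaled counts are raw counts over the geometric mean of Alas1, Gapdh, Oaz1, Polr1b, Sdha and Tbp, the genes the labels list.

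Tested genes were fitted by quasi-likelihood in edgeR 4.0.16 under R 4.3.3, with those 6 genes as offset, age as single term, Benjamini-Hochberg adjustment over 366 genes and an FDR of 0.05. SE is the absolute log2 fold change over the square root of F. Ratios within animals were compared by exact two-sided permutation tests. Scripts were tested on simulated data. Alternatives were DESeq2 1.42.0, limma 3.58.1 (log2 with a pseudocount of 1 or 10), other scalings and presence rules, an FDR of 0.1, and samples left out. The authors' factors were estimated here, per sample, from the median ratio of their scaled values to the raw counts of brighter genes. The members and lists were chosen with earlier results of these data known. Named genes were all members and, per pathway list, up to 4 tested genes with the smallest adjusted p; Syk was added for its role. Motifs were chosen after the tables were seen. One listed marker gene is not reported here by name.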

Additional observations from a re-analysis of the deposited data

Results flagged for a closer look

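Among 32 groups of 6 values examined (members and ratios at each age), 4 held 1 animal apart from the rest by the gap between neighbours; chance alone gives about 1 in 20. At P28, Fyn had 391 scaled counts in sample 118 against 277 to 313 in the other animals. At P28, Src had 951 scaled counts in sample 138 against 533 to 624. At P28, Cd79b had 274 scaled counts in sample 137 against 147 to 188. At P14, Zap70 had 24.7 scaled counts in sample 5 against 12.6 to 16.2, from a raw count of 10 that lay under the background of its lane.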

How the results depend on the processing

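Fyn, Lck and Cd79b passed as lower under all 29 alternatives run. Among these, the FDR of 0.1 is the main fit with a looser cut and could not lose a call. The count of members lower was 3 in each except without the presence rule, where Cd247 made it 4. The count of members higher, 1 at first, was 2 with TMM factors, all 14 reference genes, DESeq2 with median-ratio factors and an FDR of 0.1, and 3 with the authors' factors and with limma on the authors' scaled values. It was 0 with positive controls alone and, since Cd79a is then not tested, when all 12 samples had to be above background. It was 2 without P14 samples 4 and 5 and P28 sample 138, an alternative chosen after seeing the data. Leaving out 1 animal gave 1 member higher and 3 lower each time, and moved the ratio of Fyn over Lck between -0.56 and -0.33, Lcp2 over Blnk between -0.29 and -0.17 and Btk over Blnk between -0.58 and -0.35. Without P14 samples 4 and 5, Lcp2 over Blnk was -0.24 (adjusted p = 0.0914, exact permutation test).

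Signs turned for Lcp2 without Polr1b (-0.0025), with total counts (-0.014), without P14 samples 4 and 5 (-0.095) and without those and P28 sample 138 (-0.069). Btk turned under the authors' factors (0.045) and under limma on their values (0.048). With positive controls alone, signs turned for Blnk (-0.43), Cd79a (-0.0095), Lcp2 (-0.71), Src (-0.38), Ptpn6 (-0.26), Ptpn2 (-0.44), Ptprc (-0.44), Trem2 (-0.065) and Rela (-0.32); the cause was not tested. Over all tested genes, 61 higher and 51 lower became 93 higher with the authors' factors and 96 lower with total counts. The count lower was 26 with limma on the authors' values, 85 without P14 samples 4 and 5 and 94 also without P28 sample 138. That limma fit took only genes in the authors' table of 336. Fits with samples left out applied the presence rule anew, so the genes tested could differ. Of the 10 members, 8 were present also with the mean plus 3 SD, or the highest negative probe, as threshold. No paired analysis was possible because the sample numbers do not repeat between the ages. Background limits Zap70, Cd247, Cd79a, Klrd1, Klrk1, Cd5 and Cd96.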
